A study of Mus musculus with 12 samples.

Results

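The voltage-gated sodium and calcium channels, the hyperpolarization-activated HCN channels and the transient receptor potential (TRP) channels were examined in the hypothalamus of Wfs1 mutant mice. Members were taken from the count table by gene symbol: the sodium channel subunits (Scn followed by a digit), the calcium channel subunits (Cacna, Cacnb and Cacng), the HCN genes, and the TRP channels of the A, C, M and V groups, without lines marked as duplicates or pseudogenes. The rule found 67 of 24020 genes. One of them, Trpc4ap, encodes a protein that binds the channel TRPC4 and is not itself a channel, and it is described separately.

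Wolframin, the product of Wfs1, sits in the membrane of the endoplasmic reticulum, and its loss causes Wolfram syndrome in people. All mice carried the strain name Wfs1tm1Koks and differed in genotype: wild-type with 0 mutant copies, heterozygous with 1 and homozygous with 2, with 4 individuals each. Whole hypothalamus was frozen after dissection, total RNA was amplified to cDNA, and 1 library per individual was sequenced on a SOLiD instrument. Age, sex and any treatment are not given in the labels used here, and they do not describe what the allele leaves of the Wfs1 transcript. One homozygous column, called homozygous replicate 5, has no label with its number and was placed by its genotype prefix, while the third homozygous label has no column with its number and was tied to none. The number of 4 follows the design text and the 12 columns; the growth protocol gives 5 hypothalami for each of 2 genotypes, and this difference is unresolved.

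Voltage-gated sodium channels carry the upstroke of the action potential: a pore-forming alpha subunit does so together with beta subunits that anchor it and set its gating. In calcium channels the alpha1 subunit is the pore, beta and alpha2delta subunits carry it to the membrane, and most brain gamma subunits act instead as escorts of AMPA-type glutamate receptors. HCN channels open on hyperpolarization and pass the inward current that paces firing, and TRP channels are cation channels gated by lipids, temperature, divalent ions and signals downstream of receptors. In the hypothalamus these families together shape the firing and hormone release of neuroendocrine neurons and the sensing of temperature and energy state.

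Libraries held 979394 to 2330872 counts, of which the 67 genes took 4347 to 11066 (0.444% to 0.514%). Wfs1 followed the labels: the wild-type libraries held 114 to 167 CPM (counts scaled to library size with trimmed-mean factors), the heterozygous ones 81.8 to 103 and the homozygous ones 14.8 to 20.1. Homozygous replicates 4 and 5 stood apart. A score for base composition (the correlation, across genes, of a library's deviation from the mean with transcript GC content) was −0.54 and −0.53 there. It was −0.05 and 0.04 in the other homozygous libraries and 0.04 to 0.47 in wild-type. The ribosomal RNA precursor Rn45s stood at 95.6 and 85.8 CPM in replicates 4 and 5 against 316 and 352 in the other homozygous libraries. Rn45s also differed between genotypes, at 958 to 1983 CPM in wild-type and 352 to 788 in heterozygous libraries. All homozygous libraries lay below all wild-type ones. Between homozygous and wild-type mice 3 of 8 neuronal marker genes were higher and 2 lower, and their summed level was 4861 to 6037 CPM in wild-type and 6179 to 8268 in homozygous libraries. Of 7 oligodendrocyte markers 2 were lower (2950 to 3790 against 1740 to 3063 CPM summed), of 3 precursor markers 1 was lower (151 to 180 against 96.0 to 140), and of 6 astrocyte markers 2 were higher and 1 lower (4225 to 5404 against 5117 to 6631). No microglial, endothelial or choroid plexus marker passed the test. Of 9 tested hypothalamic marker genes Sst was higher (1.03) and Trh lower (−1.08), with a median log2 fold change of −0.41. The others missed the threshold: Avp (−1.18), Oxt (−0.48), Hcrt (−0.41) and Gal (−0.63) below 0, and Sim1 (0.43), Pmch (0.22) and Nkx2-1 (0.07) above 0. The summed level of the 10 listed was 1105 to 1491 CPM in wild-type and 1274 to 1626 in homozygous libraries, most of it from Pmch (mean of 880 and 1031 CPM). The 5 pituitary markers were too low to test and summed to 1.46 to 4.76 CPM in wild-type and 1.13 to 9.89 in homozygous libraries, with Gh and Prl at 0 in all of these and mean levels of 1.60 and 3.16 CPM for Tshb. The part of composition and of these marker shifts in the channel results was not tested. In bulk tissue, fewer cells of a type and less RNA per cell cannot be told apart.

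Of the 67 genes, 45 had enough counts to be tested, and 22 did not. The pore genes of skeletal muscle and some of those of sensory neurons were among the latter: Scn4a had 4 counts over the 12 libraries, Scn10a 5, Scn11a 7 and Cacna1s 17. Cacna1f, the pore of the photoreceptor calcium channel, had 11. The cold receptor Trpm8 had 7 counts, the irritant receptor Trpa1 9 and the capsaicin receptor Trpv1 1. Most members of the TRPM and TRPV groups were this low: Trpm1 (1), Trpm4 (74), Trpm5 (2), Trpm6 (18), Trpv3 (14), the osmosensitive Trpv4 (4) and Trpv6 (17). Trpc2 had 59 counts, Trpc6 70, Cacna2d4 58, Cacng8 14 and Cacng1 2, and Trpv5 and Cacng6 had 0. These 22 genes entered no test in the fit reported here. In CPM, Trpm4 and Cacng8 were lower in every homozygous than in every wild-type library, and they are singled out after their values were seen. How often this holds among all genes too low to test was not counted. Trpm4 stood at 4.40, 7.61, 6.56 and 6.22 CPM across wild-type libraries, at 5.14, 2.50, 2.93 and 4.59 in the heterozygous ones and at 2.68, 3.59, 2.47 and 1.13 in the homozygous ones, from 1 to 10 counts per library. Cacng8 had 1, 1, 4 and 2 counts across wild-type libraries and 1, 0, 0 and 0 across homozygous ones. At 1 count each, wild-type replicate 1 (0.733 CPM) and homozygous replicate 1 (0.671 CPM) differ only through library scaling.

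Per length of transcript, the sodium channel genes Scn2a1 and Scn2b were the most abundant of those tested. In wild-type libraries the pore gene Scn2a1 (now Scn2a, Nav1.2) stood at 48.7 ± 1.55 CPM per kilobase (SD, n = 4), and the beta subunits Scn2b and Scn3b at 44.8 ± 3.13 and 41.4 ± 3.92 CPM per kilobase. Scn1a followed at 34.3 ± 3.64, then Scn8a at 19.9 ± 2.56 and Scn3a at 18.9 ± 1.63 CPM per kilobase. The wild-type ranges of Scn2b and Scn3b overlapped, as did those of Scn8a and Scn3a. Among calcium channel pores the R-type gene Cacna1e led with 26.9 ± 2.88 CPM per kilobase, ahead of the P/Q-type gene Cacna1a (14.3 ± 1.03) and the N-type gene Cacna1b (10.6 ± 2.10). Several auxiliary subunits stood near or above Cacna1e: Cacna2d1, the gabapentin-binding alpha2delta subunit, stood at 42.3 ± 2.61, Cacnb2 at 35.6 ± 3.25, Cacnb4 at 30.9 ± 3.92 and Cacng7 at 24.6 ± 7.04 CPM per kilobase. Others were lower, such as Cacna2d3 (11.5 ± 2.87), Cacnb1 (6.75 ± 2.12) and Cacng4 (2.33 ± 0.886 CPM per kilobase). Trpc5 led the TRPC group at 25.5 ± 5.40 and Trpm3 the TRPM group at 18.4 ± 3.21 CPM per kilobase. Trpv2 was the only TRPV gene tested (6.15 ± 2.22 CPM per kilobase).

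**Figure D1:**
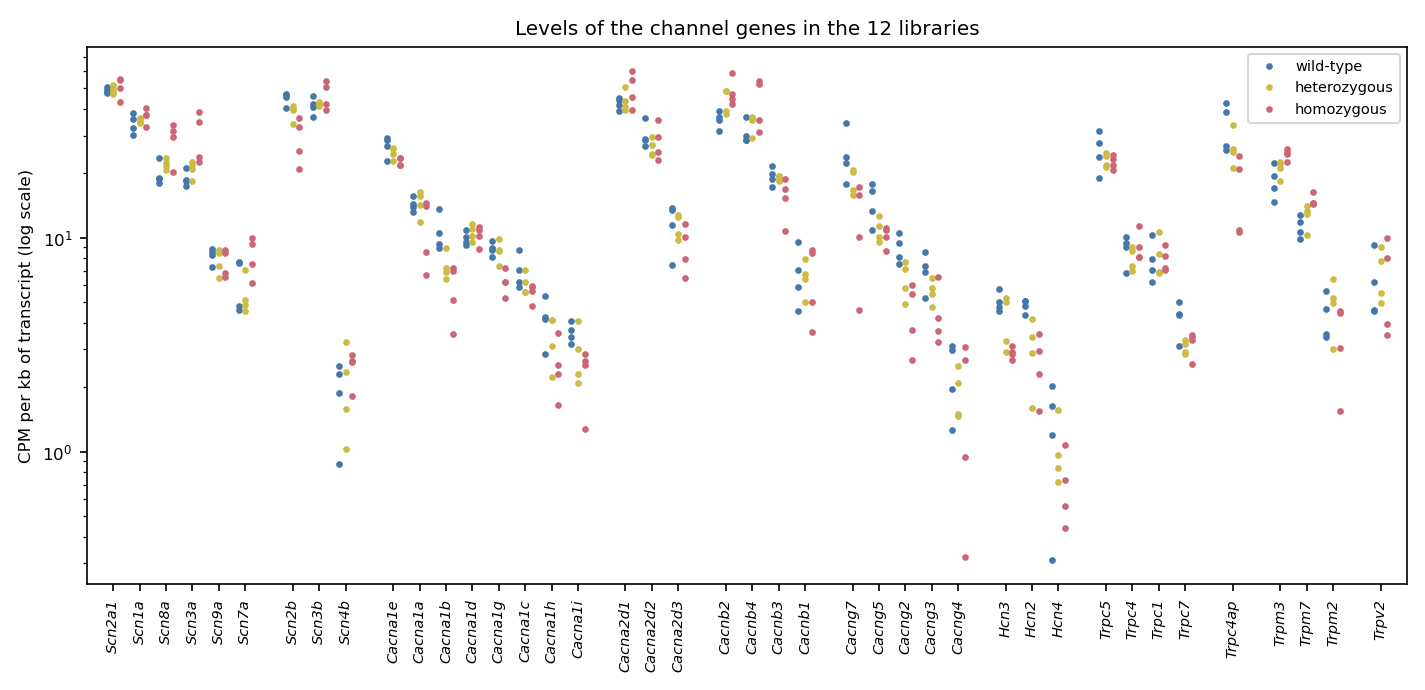
Level per length of 41 tested genes (y axis, CPM per kilobase of the longest transcript, log scale) in each of the 12 libraries (points, coloured by genotype), grouped by channel class and ordered within a class by the wild-type mean (x axis). Scn2a1, Scn2b, Cacna2d1 and Scn3b stand at the top of the range and Hcn4 and Scn4b near its foot, and the libraries of a genotype scatter most for the low genes.

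Homozygous mice were set against wild-type mice to see which channel transcripts differ with 2 mutant copies of Wfs1. In homozygous mice 6 of the 45 genes were higher: the sodium channel pores Scn3a and Scn8a, the calcium channel beta subunits Cacnb2 and Cacnb4, and the TRP channels Trpm3 and Trpm7. Another 9 were lower: the calcium channel pores Cacna1b and Cacna1g, the gamma subunits Cacng2, Cacng5 and Cacng7, the pacemaker channels Hcn2 and Hcn3, the sodium channel beta subunit Scn2b, and Trpc4ap. Rising genes changed by 0.41 to 0.65 on the log2 scale and falling genes by −0.50 to −0.94. The test was edgeR's quasi-likelihood F test in a fit of all 12 libraries, with Benjamini-Hochberg adjustment over the 10737 genes tested and a call at an adjusted p under 0.05.

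The 15 called genes are 33.3% of the 45, where 25.4% of all genes tested were called (13.7% higher and 11.6% lower). The median log2 fold change was −0.17 over the 45 genes and −0.03 over all genes tested. Homozygous and wild-type libraries did not overlap for 4 genes that were higher and 9 that were lower, where 11.8% of all genes tested were free of overlap in each direction. The 9 include Cacna1i, which missed the threshold, while the called genes Scn8a, Cacnb4 and Cacng5 overlapped. With upper-quartile scaling 3 of the genes were higher and 12 lower: Cacnb2, Cacnb4 and Trpm7 dropped out, and Cacna1e, Cacna1h and Cacna1i came in among the lower genes. Under that scaling 1238 of all genes tested were higher and 1575 lower (26.2% in all), against 1475 and 1248 with the scaling used here.

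How many genes were called rested on few libraries. Without wild-type replicate 3 the count fell from 15 to 9 (16.9% of all genes called), and without homozygous replicates 4 and 5 together it fell to 3 (Cacna1b, Cacnb2 and Trpm3), with 11.9% of all genes called in that fit. With the composition score as a covariate no gene of the 45 was called, where 332 of all genes (3.09%) still were. The score comes from these same counts, and every homozygous score (at most 0.0367) lay below every wild-type score (at least 0.0411). That fit therefore cannot fully separate the score from genotype. Cacna1b, Scn3a, Trpc4ap, Cacng7, Scn2b, Cacng2 and Scn8a were called in each of the 12 fits that left out 1 library.

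**Figure D2:**
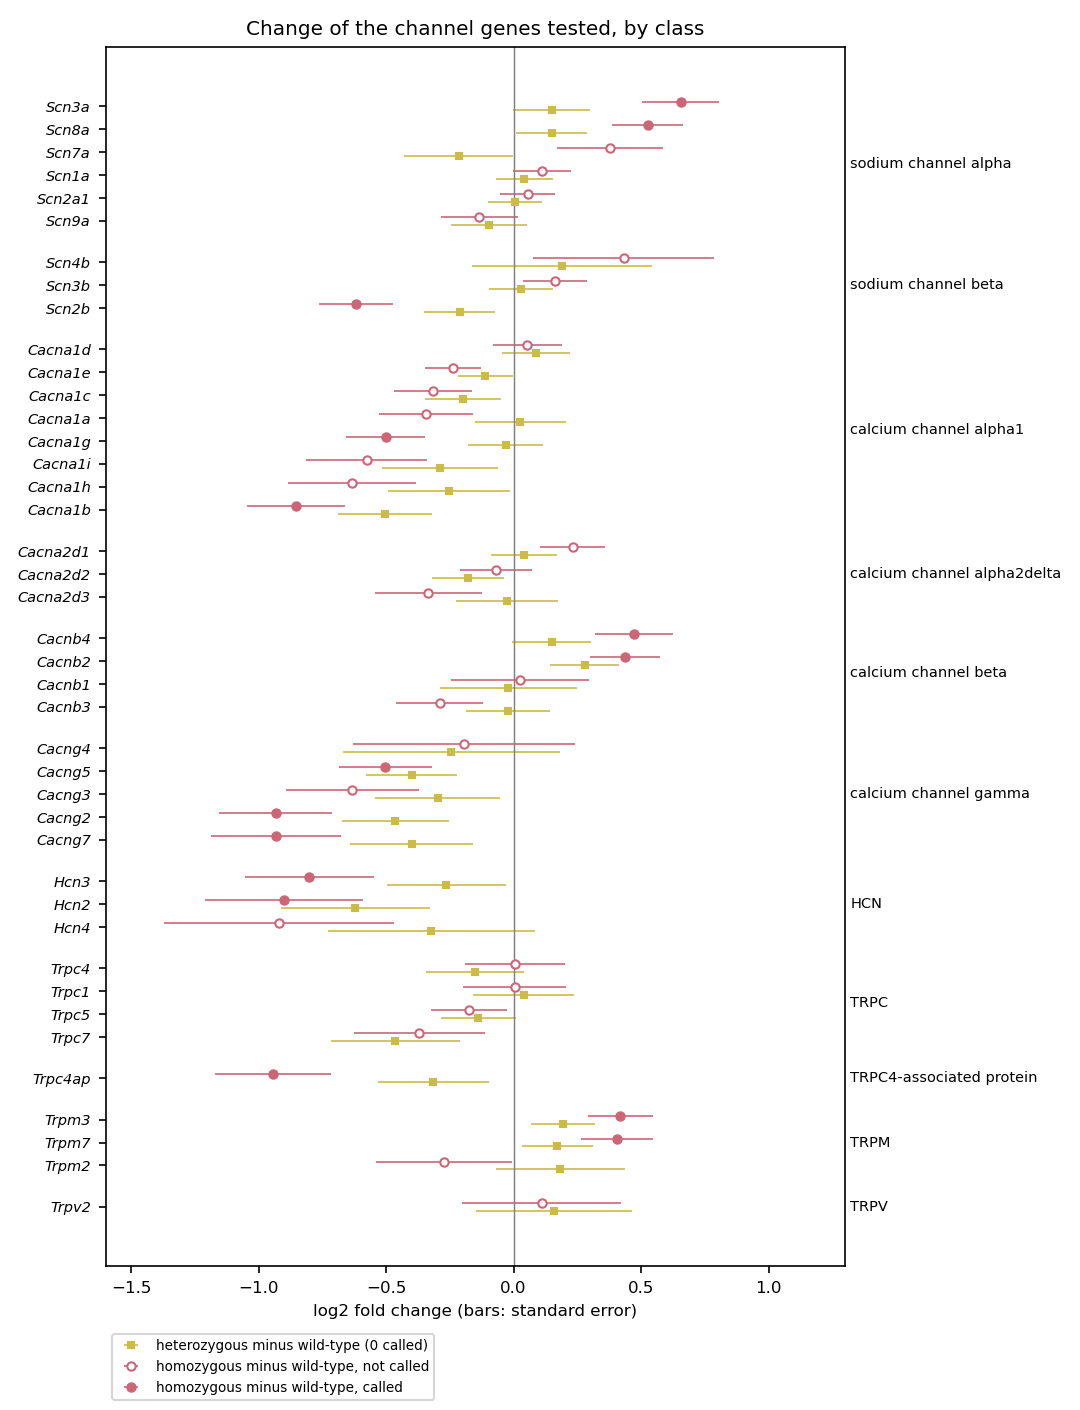
Log2 fold change (x axis) of 41 tested genes by channel class (y axis) for homozygous minus wild-type (circles, filled where called at an adjusted p under 0.05) and heterozygous minus wild-type (squares, none called), with standard errors as bars. All 5 gamma subunits lie left of 0 in homozygous mice, the called sodium channel pores, calcium channel beta subunits and TRPM genes lie to the right, and the heterozygous values are mostly nearer to 0.

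Promoter windows of 4 called genes are printed here, 2 that rose (Scn8a and Trpm7) and 2 that fell (Cacna1b and Cacng2), so that the start regions of genes with opposite changes can be set side by side. They were chosen after their values were seen. Each runs from 250 bases before to 50 after the most upstream start listed for the gene by RefSeq on build GRCm38.p6, 5′ to 3′ on the strand of the gene. Capitals mark the GC box GGGCGG and the E-box CACGTG.
Scn8a, chr15:100870395-100870694, plus strand: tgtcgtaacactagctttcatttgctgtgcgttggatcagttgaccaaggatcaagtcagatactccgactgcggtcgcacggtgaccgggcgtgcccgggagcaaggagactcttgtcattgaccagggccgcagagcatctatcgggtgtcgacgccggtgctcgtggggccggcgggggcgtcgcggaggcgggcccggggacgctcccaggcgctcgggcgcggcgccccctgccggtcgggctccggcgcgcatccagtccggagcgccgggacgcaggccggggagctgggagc
Trpm7, chr2:126876212-126876511, minus strand: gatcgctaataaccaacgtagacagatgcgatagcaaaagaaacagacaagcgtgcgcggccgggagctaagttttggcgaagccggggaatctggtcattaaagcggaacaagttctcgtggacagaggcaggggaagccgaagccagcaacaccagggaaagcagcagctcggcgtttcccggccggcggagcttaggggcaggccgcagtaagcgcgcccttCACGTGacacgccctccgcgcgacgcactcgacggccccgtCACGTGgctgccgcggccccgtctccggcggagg
Cacna1b, chr2:24763103-24763402, minus strand: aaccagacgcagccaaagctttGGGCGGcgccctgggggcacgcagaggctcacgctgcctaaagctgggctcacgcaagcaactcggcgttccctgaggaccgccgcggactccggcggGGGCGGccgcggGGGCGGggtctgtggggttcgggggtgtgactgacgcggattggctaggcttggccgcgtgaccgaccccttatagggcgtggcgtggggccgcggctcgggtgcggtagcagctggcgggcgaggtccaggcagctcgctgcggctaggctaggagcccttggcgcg
Cacng2, chr15:78119231-78119530, minus strand: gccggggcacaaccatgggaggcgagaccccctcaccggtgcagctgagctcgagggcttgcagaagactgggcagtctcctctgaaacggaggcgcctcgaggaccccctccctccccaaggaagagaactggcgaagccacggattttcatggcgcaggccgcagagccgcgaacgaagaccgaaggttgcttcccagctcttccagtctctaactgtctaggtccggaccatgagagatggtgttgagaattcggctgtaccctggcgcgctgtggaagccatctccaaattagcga
All 4 windows are rich in GC, at 70.0% for Scn8a, 63.7% for Trpm7, 72.3% for Cacna1b and 61.0% for Cacng2, against a median of 52.7% over the 32851 windows of the table. They hold 38, 35, 35 and 20 CpG dinucleotides, where the median window holds 7. The Trpm7 window has 2 E-boxes and the Cacna1b window 3 GC boxes, while the other 2 windows hold neither motif in either orientation. On either strand, GGGCGG stands in 34.3% of the 67 windows found for 52 of the channel genes and in 35.7% of all windows. The corresponding shares are 4.48% and 7.15% for CACGTG, and 10.4% and 13.6% for the TATA box TATAAA. The ER stress element, CCAAT and CCACG spaced by 9 bases, stands in 0 of the 67 windows and in 0.119% of all windows. These are matches of letters and say nothing of binding.

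Among the sodium channel pores, 2 of 7 tested genes were higher in homozygous mice and none was lower. Of all genes tested, 13.7% were higher and 11.6% lower. Scn3a encodes Nav1.3, which is best known from the developing brain (ENSMUSG00000057182.14, mm10 chromosome 2, 65457118 to 65567627, minus strand). It stood at 178, 203, 166 and 175 CPM in wild-type replicates 1, 2, 3 and 5, at 199, 176, 217 and 209 in heterozygous replicates 1 to 4 and at 229, 215, 332 and 370.3 in homozygous replicates 1, 2, 4 and 5. Every homozygous library lay above every wild-type library, and homozygous replicates 4 and 5 were far above the other 2. Group means came to 181 ± 15.6, 200.3 ± 17.5 and 286 ± 76.6 CPM (± SD over n = 4 libraries, here and in what follows), and the homozygous difference passed the test (log2 fold change of 0.65 with SE 0.152 and adjusted p = 0.00318). Without homozygous replicates 4 and 5 it was smaller and missed the threshold (0.30, adjusted p = 0.129).

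Scn8a encodes Nav1.6, the pore of nodes of Ranvier and axon initial segments (chromosome 15, 100869858 to 101045938, plus strand). It stood at 271, 217, 206 and 216 CPM across wild-type libraries, at 256, 238, 269 and 247 in the heterozygous ones and at 233, 338, 359 and 384 in the homozygous ones, in the same order of replicates. Homozygous replicate 1 lay among the wild-type values, so the groups overlapped, and the other 3 homozygous libraries were above every other library. The homozygous mean of 328 ± 66.5 CPM exceeded the wild-type mean of 227 ± 29.2 (log2 fold change of 0.53 with SE 0.138 and adjusted p = 0.00779). Without homozygous replicates 4 and 5 the log2 fold change was 0.34 (adjusted p = 0.107).

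The other 5 pores were not called. Scn2a1, the most abundant, stood at 454, 437, 427 and 423 CPM across wild-type libraries, at 440.3, 417, 463 and 428 in the heterozygous ones and at 486, 385, 493 and 446 in the homozygous ones, with a log2 fold change of 0.05 between the outer genotypes (SE 0.107, adjusted p = 0.744). The homozygous libraries spread on both sides of the wild-type ones. Scn1a, the Nav1.1 pore of many inhibitory neurons, had 0.11 (SE 0.113) and the sensory-neuron pore Scn9a −0.13 (SE 0.151), both on the log2 scale. Scn7a, which encodes a sodium-sensing channel of glia, had 0.38 (SE 0.209, adjusted p = 0.191), with 33.5 to 56.6 CPM in wild-type and 44.9 to 73.3 in homozygous libraries. Scn3a, Scn2a1, Scn1a, Scn9a and Scn7a lie in 1 cluster on chromosome 2, and Scn3a alone of these 5 was called. Reads shared between these related genes cannot be traced in a table of counts per gene.

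Of the sodium channel beta subunits, which hold the pores in place, 1 of 4 was lower, where 11.6% of all genes tested were. Scn2b, the subunit bound to the pore by a disulfide bridge, stood at 187, 215, 212 and 219 CPM across wild-type libraries, at 159, 185, 185 and 191 in the heterozygous ones and at 168, 153, 118 and 97.1 in the homozygous ones. All homozygous libraries lay below all wild-type ones, and the lowest were again replicates 5 and 4. Scn2b (ENSMUSG00000070304.12, mm10 chromosome 9, 45117782 to 45130070, plus strand) fell from 208 ± 14.6 to 134 ± 32.4 CPM (log2 fold change of −0.62 with SE 0.144 and adjusted p = 0.00328), and without those 2 libraries its log2 fold change was −0.37 (adjusted p = 0.0623). The others did not pass the test, with log2 fold changes of 0.16 for Scn3b and 0.43 for Scn4b. Of the per-length total of the 4 genes, Scn2b made up 41.3% ± 2.92 in wild-type and 29.3% ± 4.99 in homozygous libraries, and Scn3b 38.2% ± 2.46 and 48.4% ± 10.5 (SD, n = 4).

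Among the calcium channel pores, 2 of 8 tested genes were lower and none was higher, where 11.6% and 13.7% of all genes tested were. For 7 of the 8 the log2 fold change was below 0, and the median over the 8 was −0.42. Cacna1b encodes Cav2.2, the N-type channel that admits calcium for transmitter release (ENSMUSG00000004113.18, mm10 chromosome 2, 24603887 to 24763152, minus strand). It stood at 87.3, 132, 103 and 90.8 CPM across wild-type libraries, at 67.5, 87.2, 62.3 and 70.2 in the heterozygous ones and at 67.7, 70.04, 34.6 and 49.7 in the homozygous ones. The wild-type libraries lay above all homozygous libraries and, by a narrow margin, above all heterozygous ones. Cacna1b fell from 103 ± 20.4 to 55.5 ± 16.6 CPM (log2 fold change of −0.85 with SE 0.192 and adjusted p = 0.00245). It was called without homozygous replicates 4 and 5 (−0.56, adjusted p = 0.0319) and with an offset for transcript GC content (−0.67, adjusted p = 0.00444), and its log2 fold change was −0.38 with the composition score (adjusted p = 0.370).

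Cacna1g encodes Cav3.1, a T-type channel that supports burst firing (chromosome 11, 94408391 to 94474198, minus strand). It stood at 74.8, 73.3, 80.9 and 67.8 CPM across wild-type libraries, at 82.3, 72.6, 61.5 and 73.5 in the heterozygous ones and at 43.6, 60.6, 51.9 and 51.9 in the homozygous ones. The homozygous libraries lay below all others, and the heterozygous libraries spread over the wild-type range. The mean fell from 74.2 ± 5.40 to 52.01 ± 6.95 CPM (log2 fold change of −0.50 with SE 0.154 and adjusted p = 0.0191), and the call was lost without wild-type replicate 3 or homozygous replicate 1, and without homozygous replicates 4 and 5 together (−0.48, adjusted p = 0.0743). The other T-type genes had similar values that missed the threshold: Cacna1h −0.63 (SE 0.250, adjusted p = 0.0653) and Cacna1i −0.58 (SE 0.238, adjusted p = 0.0779). The abundant R-type gene Cacna1e stood at 428, 435, 401 and 341 CPM across wild-type libraries, at 389.5, 341, 388 and 368 in the heterozygous ones and at 353, 327, 353 and 327 in the homozygous ones. Its groups overlapped, and the log2 fold change of −0.24 missed the threshold (SE 0.110, adjusted p = 0.118). The L-type genes Cacna1c and Cacna1d had −0.31 and 0.05, and the P/Q-type gene Cacna1a −0.34.

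The alpha2delta subunits, which raise the number of channels at the membrane, gave no call among 3 tested genes. Cacna2d1 stood at 334, 326, 290.0 and 309.6 CPM across wild-type libraries, at 376, 304, 324 and 293 in the heterozygous ones and at 339, 295, 407 and 445 in the homozygous ones. Homozygous replicates 1, 4 and 5 were above all wild-type values, replicate 1 by a narrow margin, and replicate 2 was among them. The log2 fold changes were 0.23 for Cacna2d1 (adjusted p = 0.195), −0.07 for Cacna2d2 and −0.34 for Cacna2d3.

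Of the calcium channel beta subunits, the cytoplasmic partners that bring the pore to the membrane, 2 of 4 were higher. Over all genes tested the share was 13.7%. Cacnb2 (ENSMUSG00000057914.15, mm10 chromosome 2, 14603088 to 14987908, plus strand) stood at 144, 124, 154 and 139.9 CPM across wild-type libraries, at 149, 153, 191 and 192 in the heterozygous ones and at 232, 186, 176 and 166 in the homozygous ones. Homozygous replicate 1 was highest here and replicate 5 lowest, and all 4 exceeded the wild-type libraries. The mean rose from 141 ± 12.8 to 190.0 ± 29.2 CPM (log2 fold change of 0.44 with SE 0.136 and adjusted p = 0.0209). Without homozygous replicates 4 and 5 the log2 fold change of Cacnb2 was 0.57 (adjusted p = 0.00712), and the call was lost without wild-type replicate 2 or homozygous replicate 1.

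Cacnb4, the subunit mutated in the lethargic mouse, lies on chromosome 2, 52428320 to 52676831, minus strand. It stood at 302, 245, 235 and 234 CPM across wild-type libraries, at 291, 239, 298 and 302 in the heterozygous ones and at 258, 290.5, 444 and 428 in the homozygous ones. Homozygous replicates 4 and 5 stood far above the rest, while replicates 1 and 2 lay within the wild-type range. The mean was 355 ± 94.7 CPM against 254 ± 32.3 in wild-type (log2 fold change of 0.47 with SE 0.154 and adjusted p = 0.0271). That call was lost without either of homozygous replicates 4 and 5 or any of wild-type replicates 2, 3 and 5, and without both homozygous libraries the log2 fold change was 0.12 (adjusted p = 0.633). Cacnb1 and Cacnb3 had 0.02 and −0.29 on the log2 scale and were not called. With upper-quartile scaling neither Cacnb2 (adjusted p = 0.0537) nor Cacnb4 (adjusted p = 0.0516) passed. Summed over the 4 genes, wild-type libraries had 441 to 516 CPM, heterozygous libraries 469 to 567 and homozygous libraries 557 to 675.

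The gamma subunits had the lowest median log2 fold change of the calcium channel classes (−0.63). All 5 tested genes had log2 fold changes below 0, and 3 were called lower, where 11.6% of all genes tested were. Cacng2 encodes stargazin, which carries AMPA receptors to the synapse (ENSMUSG00000019146.2, mm10 chromosome 15, 77991748 to 78120028, minus strand). It stood at 57.9, 44.7, 51.7 and 41.6 CPM across wild-type libraries, at 42.4, 39.2, 27.1 and 32.2 in the heterozygous ones and at 30.2, 33.2, 14.8 and 20.3 in the homozygous ones. No homozygous library reached a wild-type one, and replicates 4 and 5 were lowest. Cacng2 fell from 49.01 ± 7.30 to 24.6 ± 8.55 CPM (log2 fold change of −0.93 with SE 0.222 and adjusted p = 0.00382), and without those 2 libraries its log2 fold change was −0.61 (adjusted p = 0.0568).

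Cacng7, another AMPA receptor escort, lies on chromosome 7, 3332955 to 3368221, plus strand. It stood at 49.1, 76.1, 39.3 and 52.8 CPM across wild-type libraries, at 45.6, 44.6, 35.2 and 36.8 in the heterozygous ones and at 34.9, 38.2, 22.2 and 10.2 in the homozygous ones. Homozygous replicate 5 was lowest, and the highest homozygous value lay just under the lowest wild-type one. Cacng7 fell from 54.4 ± 15.6 to 26.4 ± 12.8 CPM (log2 fold change of −0.93 with SE 0.255 and adjusted p = 0.00976); the value without homozygous replicates 4 and 5 was −0.54 (adjusted p = 0.0998). Cacng5, a related escort (chromosome 11, 107874605 to 107915055, minus strand), stood at 60.9, 65.6, 49.5 and 40.4 CPM across wild-type libraries, at 41.8, 46.7, 37.4 and 35.4 in the heterozygous ones and at 32.2, 40.4, 41.2 and 37.3 in the homozygous ones. Here wild-type replicate 5 lay among the homozygous values, and the heterozygous libraries were about as low as the homozygous ones. The difference of Cacng5 passed narrowly (log2 fold change of −0.50 with SE 0.182 and adjusted p = 0.0452): its call was lost in 9 of the 12 fits that left out 1 library, and held only in those without replicate 5 of the wild-type mice or replicate 2 of either mutant genotype. Its value without homozygous replicates 4 and 5 was −0.54 (adjusted p = 0.0922). Cacng3 (−0.63, adjusted p = 0.0783) and Cacng4 (−0.20, at 1 to 24 counts per library) did not pass. Summed over the class, wild-type libraries had 162 to 222 CPM, heterozygous libraries 120.1 to 158 and homozygous libraries 79.03 to 134, so homozygous and wild-type sums did not overlap.

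**Figure D3:**
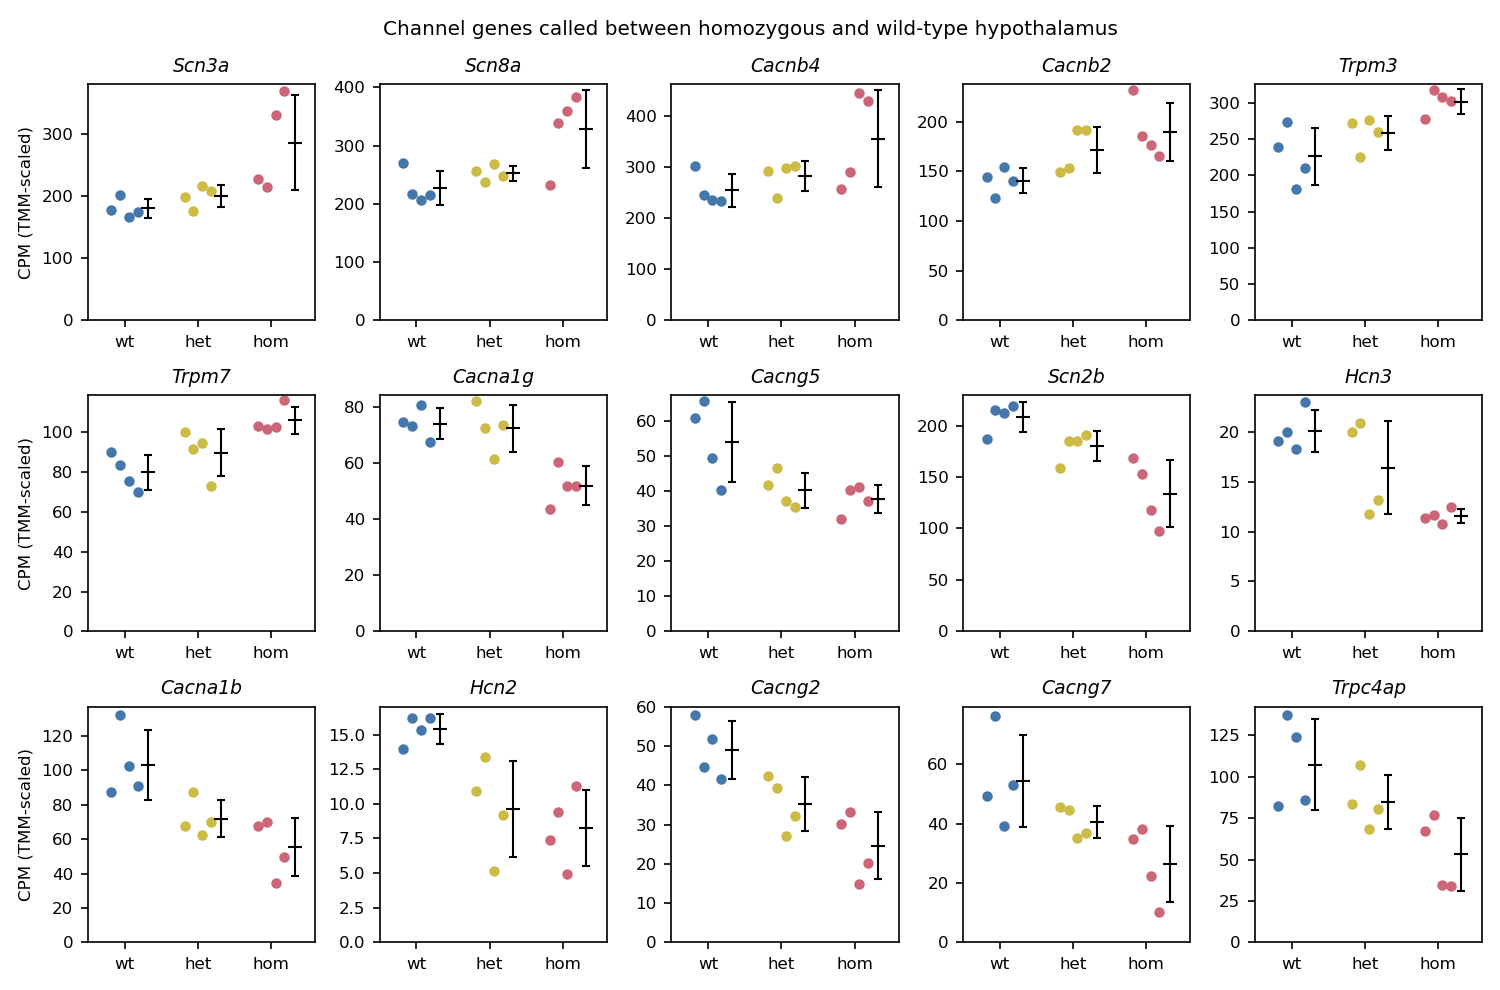
TMM-scaled CPM (y axis) of the 15 genes called between homozygous and wild-type mice in each library (points) by genotype (x axis: wt wild-type, het heterozygous, hom homozygous), with the mean and SD (n = 4) beside the points. Homozygous replicates 4 and 5, the last 2 points of each panel, stand apart from the other homozygous libraries for Scn3a, Cacnb4, Trpc4ap and Cacng7 and not for Trpm3, Hcn3 or Cacna1g.

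The HCN family had 2 of 4 genes lower, where 11.6% of all genes tested were. Hcn2, a pacemaker channel that responds strongly to cyclic AMP, stood at 13.9, 16.2, 15.3 and 16.2 CPM across wild-type libraries, at 10.9, 13.3, 5.13 and 9.19 in the heterozygous ones and at 7.38, 9.43, 4.94 and 11.3 in the homozygous ones, from 6 to 32 counts. All wild-type libraries lay above all libraries of both other genotypes. Hcn2 (ENSMUSG00000020331.9, mm10 chromosome 10, 79716634 to 79736108, plus strand) fell from 15.4 ± 1.05 to 8.26 ± 2.73 CPM (log2 fold change of −0.90 with SE 0.310 and adjusted p = 0.0353), but the call was lost without any 1 of wild-type replicates 2, 3 and 5 and homozygous replicates 1 and 4. Without homozygous replicates 4 and 5 together Hcn2 had −0.84 (adjusted p = 0.116). Hcn3, a close relative of Hcn2 (chromosome 3, 89146074 to 89160196, minus strand), stood at 19.1, 19.98, 18.2 and 23.00 CPM across wild-type libraries, at 19.9, 20.9, 11.7 and 13.1 in the heterozygous ones and at 11.4, 11.7, 10.7 and 12.4 in the homozygous ones, from 11 to 50 counts. The homozygous values were close together and below all wild-type values, and the heterozygous libraries split into 2 high and 2 low ones. Hcn3 fell from 20.1 ± 2.08 to 11.6 ± 0.707 CPM (log2 fold change of −0.80 with SE 0.253 and adjusted p = 0.0225), and this call was lost without wild-type replicate 5 or homozygous replicate 4, and without homozygous replicates 4 and 5 together (−0.79, adjusted p = 0.0832).

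Hcn4, the channel best known from the sinus node, had few reads (2 to 23 counts) and stood at 7.33, 1.90, 12.4 and 9.95 CPM across wild-type libraries, 5.14, 9.59, 4.39 and 5.91 in the heterozygous ones and 2.68, 4.49, 6.59 and 3.39 in the homozygous ones. Wild-type values spread from the lowest to the highest of all 12, and the log2 fold change of −0.92 was not called (SE 0.449, adjusted p = 0.137). With the GC offset Hcn2 (−0.31, adjusted p = 0.522) and Hcn3 (−0.41, adjusted p = 0.267) were not called.

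In the TRPM group, 2 of 3 tested genes were higher, where 13.7% of all genes tested were. Trpm3, a channel opened by heat and by the neurosteroid pregnenolone sulphate, stood at 239, 274, 181 and 211 CPM across wild-type libraries, at 273, 225, 277 and 259 in the heterozygous ones and at 278, 318, 308 and 303 in the homozygous ones. The homozygous libraries lay close together just above all others, with heterozygous replicate 3 and wild-type replicate 2 nearest to them. The mean of Trpm3 (ENSMUSG00000052387.16, mm10 chromosome 19, 22139046 to 22995410, plus strand) rose from 226 ± 39.6 to 302 ± 16.8 CPM (log2 fold change of 0.42 with SE 0.127 and adjusted p = 0.0179), and it was called without homozygous replicates 4 and 5 (0.41, adjusted p = 0.0477) but not without wild-type replicate 3.

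Trpm7, a channel fused to a kinase that passes magnesium, zinc and calcium, lies on chromosome 2, 126791565 to 126876230, minus strand. It stood at 90.2, 83.7, 75.8 and 70.2 CPM across wild-type libraries, at 100.3, 91.8, 94.5 and 72.8 in the heterozygous ones and at 103, 102, 103 and 116 in the homozygous ones. The homozygous libraries were above all others, and replicate 5 was above the other 3. Trpm7 rose from 79.99 ± 8.78 to 106 ± 6.81 CPM (log2 fold change of 0.41 with SE 0.141 and adjusted p = 0.0366), with the call lost with upper-quartile scaling (adjusted p = 0.0796) and without any 1 of wild-type replicates 2, 3 and 5 and homozygous replicates 4 and 5. Leaving out both of these homozygous libraries gave 0.37 (adjusted p = 0.128). Trpm2, opened by ADP-ribose, had −0.27 (SE 0.266). The TRPM sum came to 307 to 391 CPM in the wild-type, 357 to 419 in the heterozygous and 419 to 458 in the homozygous libraries.

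No gene of the TRPC or TRPV groups passed. Trpc5, the receptor-operated channel that led the TRPC group, stood at 115, 131, 78.7 and 99.5 CPM across wild-type libraries, at 99.6, 104, 88.6 and 90.6 in the heterozygous ones and at 85.8, 96.97, 90.6 and 102 in the homozygous ones, which overlapped throughout (log2 fold change of −0.17 with SE 0.149 and adjusted p = 0.413). The 5 TRPC genes ranged from −0.37 (Trpc7) to 0.01 (Trpc4) on the log2 scale. Trpv2 stood at 13.2, 13.3, 26.96 and 18.03 CPM across wild-type libraries, at 16.1, 26.3, 22.7 and 14.4 in the heterozygous ones and at 28.8, 23.3, 11.5 and 10.2 in the homozygous ones, with overlap of all groups and a log2 fold change of 0.11 (SE 0.313).

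Trpc4ap had the most negative log2 fold change of the 45 genes. It stood at 82.1, 137, 124 and 85.8 CPM across wild-type libraries, at 83.6, 107, 68.1 and 80.7 in the heterozygous ones and at 67.1, 76.8, 34.6 and 33.9 in the homozygous ones. All homozygous libraries lay below all wild-type ones, and replicates 4 and 5 stood well below the rest. Trpc4ap (ENSMUSG00000038324.13, mm10 chromosome 2, 155634271 to 155692384, minus strand) fell from 107 ± 27.4 to 53.1 ± 22.1 CPM (log2 fold change of −0.94 with SE 0.227 and adjusted p = 0.00415), and its log2 fold change was −0.55 without those 2 libraries (adjusted p = 0.0571).

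The sign of the change went with the GC content of the transcript. Over the 45 genes the homozygous minus wild-type log2 fold change and the GC content of the longest transcript had a Pearson r of −0.63 and a Spearman rho of −0.63, and over 10626 genes with a transcript they had −0.47 and −0.49. These are correlations across genes that share the same 8 libraries, and genes are not replicates. Of the 27 channel genes with at least 50% GC, 1 was higher and 9 were lower (median −0.37), and of all such genes 242 were higher and 1025 lower of 5018 (median −0.27). Of the 18 channel genes under 50% GC, 5 were higher and none was lower (median 0.14), and of all such genes 1220 were higher and 208 lower of 5608 (median 0.16). Scn8a was the rising gene on the GC-rich side, at 50.8% GC.

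Some of the called genes are set beside genes of like GC content here, as a description only, since they were chosen as called. Scn2b (50.5% GC, −0.62) and Scn8a (50.8%, 0.53) belong to the bin from 48% to 51% GC, whose 1767 genes had a median log2 fold change of −0.01 and quartiles of −0.30 and 0.27. The 7 channel genes of this bin ran from −0.62 to 0.53, and 2 were called. Cacng2 (−0.93), Cacna1b (−0.85) and Trpc4ap (−0.94) belong to the bin from 51% to 54%, with a median of −0.17 and quartiles of −0.46 and 0.13 over 1656 genes. The 8 channel genes of that bin ran from −0.94 to 0.11, and 4 were called. Cacna1g (−0.50) lay near the median of its bin from 57% to 60% (−0.43 over 950 genes, with quartiles of −0.75 and −0.12). In that bin Cacng7 (−0.93) and Hcn3 (−0.80) lay below the lower quartile. The 9 channel genes of the bin ran from −0.93 to 0.02, and 3 were called. Scn3a (0.65) lay above the upper quartile of 0.50 in the bin from 42% to 45%, which held 1 call among 4 channel genes. In a fit with an offset for GC content in each library, 9 channel genes were called, and 21.2% of all genes. Cacna1b, Scn3a, Trpc4ap, Scn2b, Cacng2 and Scn8a kept their call there, and Cacna1e (−0.28, adjusted p = 0.0415) and Scn9a (−0.40, adjusted p = 0.0458) were among those that gained one.

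**Figure D4:**
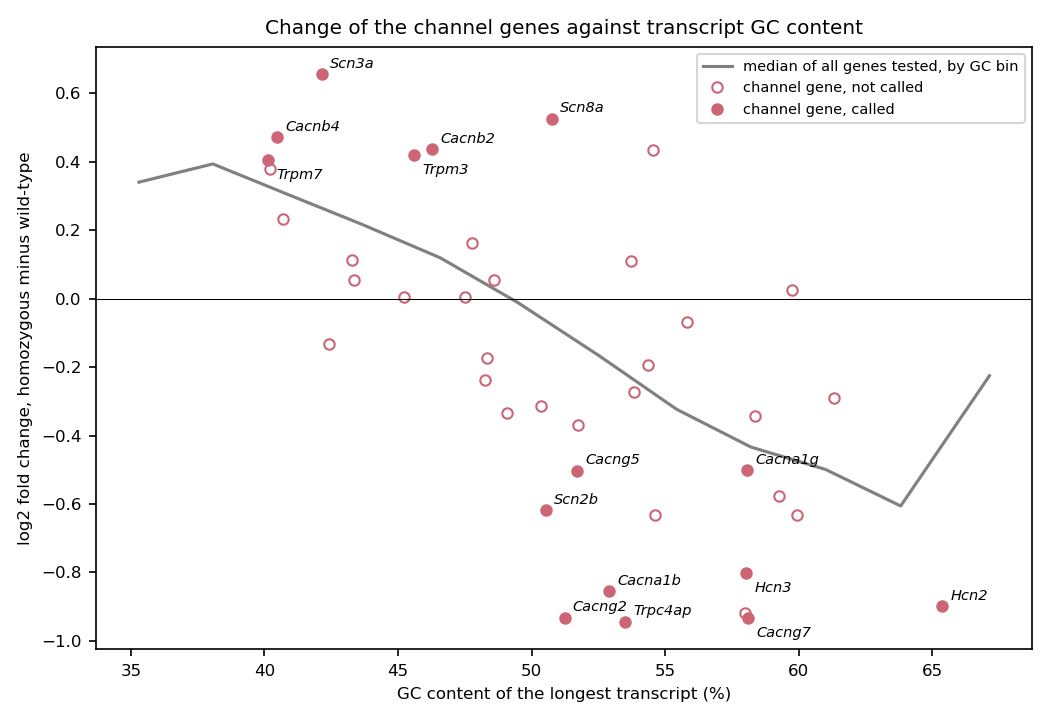
Homozygous minus wild-type log2 fold change (y axis) against the GC content of the longest transcript (x axis, %) for 41 tested channel genes (circles, filled and named where called), with the median of all genes tested in bins of GC content (grey line). The line falls from above 0 for AT-rich transcripts to below 0 for GC-rich ones. Among the called genes, for example, Scn3a and Scn8a lie above it, and Scn2b, Cacng2, Cacna1b, Trpc4ap, Cacng7 and Hcn3 below it.

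Heterozygous mice were compared with wild-type mice for the effect of 1 mutant copy. With edgeR none of the 45 genes was called, where 0.596% of all genes tested were (0.512% higher and 0.0838% lower). DESeq2 and limma-voom called none either, and 4 genes had an unadjusted p under 0.05: Cacna1b (−0.50, SE 0.185, adjusted p = 0.210), Cacng5 (−0.40, SE 0.177), Cacng2 (−0.46, SE 0.209) and Hcn2 (−0.62, SE 0.291), all below 0 on the log2 scale. How many of all genes tested had an unadjusted p this low was not counted. For Cacna1b and Hcn2 the heterozygous libraries lay below all wild-type ones, and no other of the 45 genes was free of overlap, where 9.34% of all genes tested were (4.77% higher and 4.57% lower). In the fit without homozygous replicates 4 and 5, Cacna1b alone was called (−0.49, adjusted p = 0.0450), 1 of 45 where 3.79% of all genes were called.

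Between homozygous and heterozygous mice, edgeR also called none of the 45 genes, where 2.2% of all genes tested were (1.74% higher and 0.456% lower). Of the 45, 10 had an unadjusted p under 0.05, and the share of all genes tested at that unadjusted threshold was not counted. The smallest p was that of Scn3a (0.51, SE 0.150, adjusted p = 0.0715), followed by Cacna1g (−0.47, SE 0.151, adjusted p = 0.0913). DESeq2 called 1 gene, Scn3a (0.52, adjusted p = 0.0331), where it called 4.28% of all genes, and limma-voom none. Without homozygous replicate 1 edgeR called 3 genes (Scn3a, Scn8a and Scn2b) and 7.08% of all genes, and without homozygous replicate 2 it called 4 (Scn3a, Scn7a, Cacna1g and Trpc4ap) and 8.02% of all genes. Trpm3 and Trpm7 were higher and Cacna1g lower in every homozygous than in every heterozygous library, where 9.48% of all genes tested were free of overlap (5% higher and 4.48% lower).

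The 3 comparisons share libraries, so their values are given side by side and not as support for each other. The heterozygous mean lay between the other means for all 15 called genes and for 96.3% of all genes called between homozygous and wild-type mice. Cacng5 and Hcn2 had most of their difference in the heterozygous step (Cacng5 −0.40 and then −0.10, Hcn2 −0.62 and then −0.28). Cacna1g and Scn3a had most of it in the step from heterozygous to homozygous (Cacna1g −0.03 and then −0.47, Scn3a 0.15 and then 0.51). Whether these steps differ in size was not tested.

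Proteins that anchor, modulate or work beside these channels were listed apart from them, 43 genes of which 34 were tested. Between homozygous and wild-type mice 5 of the 34 were higher and 11 lower, where 13.7% of all genes tested were higher and 11.6% lower. The median log2 fold change was −0.03, the same as over all genes tested. The higher genes include Calm2, Ank2, Fam155a and Fgf12, and the lower ones include Calm3, 2 endolysosomal channels and 4 calcium transporters of the plasma membrane. As above, the count depended on a few libraries: it was 7 without homozygous replicates 4 and 5, where 11.9% of all genes were called. The 7 include Ank2, Calm2, Fam155a, Mcoln1, Tpcn1 and Slc8a3. Fgf12, Rimbp2, Stac2, Calm3, Unc79, Pkd1, Atp2b2, Atp2b4 and Slc24a3 lost their call there. With the composition score the count was 1 (Calm2), where 3.09% of all genes were called, and that fit cannot fully separate the score from genotype.

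Calmodulin, the calcium sensor on the tails of both sodium and calcium channels, is encoded by several genes for the same protein, and Calm2 and Calm3 moved apart. Calm2 rose from 319 ± 61.5 CPM in wild-type through 496 ± 67.5 with 1 mutant copy to 943 ± 291 with 2 (log2 fold change of 1.56 with SE 0.176 and adjusted p = 3.2e-06). Calm3 fell from 353 ± 50.5 to 249 ± 93.00 CPM (log2 fold change of −0.49 with SE 0.179 and adjusted p = 0.0492). The Calm3 call was lost in 9 of the 12 fits that left out 1 library, all but those without wild-type replicate 1 or homozygous replicate 1 or 2. Reads of these genes and their processed pseudogenes may have been split between them, so the values are uncertain.

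Among the partners of the sodium channel, Ank2, the ankyrin-B scaffold, rose from 1439 ± 110.0 to 2337 ± 342 CPM (log2 fold change of 0.70 with SE 0.117 and adjusted p = 0.000216). It was the only call among 4 tested genes listed with the anchors of the axon initial segment. These data do not show that Ank2 acts there. Ank3, which encodes the ankyrin-G that holds sodium channels there, had 0.13 (SE 0.103, adjusted p = 0.385). Of 3 fibroblast growth factor homologous factors, which bind the sodium channel tail, Fgf12 was called (log2 fold change of 0.40 with SE 0.146 and adjusted p = 0.0455). Of 3 regulators, including Pex5l, the HCN channel partner TRIP8b, and the ubiquitin ligase Nedd4l, none was; Nedd4 had the smallest p (−0.13, adjusted p = 0.394).

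Of 6 calcium channel partners, Rimbp2, which ties the channels to release sites, fell from 42.3 ± 7.90 to 21.04 ± 6.23 CPM (log2 fold change of −0.95 with SE 0.228 and adjusted p = 0.00395), and Stac2, an adaptor of L-type channels, from 30.6 ± 11.03 to 12.4 ± 6.45 CPM (log2 fold change of −1.14 with SE 0.308 and adjusted p = 0.00920). Among 8 leak and endolysosomal channels and their subunits 1 was higher and 4 were lower, where 13.7% and 11.6% of all genes tested were. Fam155a, a subunit of the sodium leak channel, rose from 64.4 ± 3.76 to 116 ± 24.1 CPM (0.83, adjusted p = 0.000606), while Unc79 of the same complex fell (−0.38, adjusted p = 0.0463) and the pore gene Nalcn was not called (−0.11). Mcoln1, the lysosomal TRP channel mucolipin-1, fell from 47.7 ± 7.02 through 29.1 ± 8.35 to 15.7 ± 8.68 CPM (log2 fold change of −1.47 with SE 0.276 and adjusted p = 0.000568). The lysosomal 2-pore channel Tpcn1 (−1.01, adjusted p = 0.00438) and the polycystin Pkd1 (−0.80, adjusted p = 0.00552) fell as well.

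Calcium export genes gave 4 lower and no higher calls of 10, where 11.6% of all genes tested were lower and 13.7% higher. The sodium-calcium exchanger Slc8a3 fell from 119 ± 1.41 to 64.6 ± 23.9 CPM (log2 fold change of −0.85 with SE 0.185 and adjusted p = 0.00207), and the calcium pumps Atp2b2 (−0.42) and Atp2b4 (−0.44) and the potassium-dependent exchanger Slc24a3 (−0.44) fell too. Leaving out 1 of wild-type replicates 2 and 3 and homozygous replicates 4 and 5 ended the calls of Fgf12, Unc79 and Atp2b4, omitting homozygous replicate 5 that of Slc24a3, and Fgf12 and Unc79 were also lost without heterozygous replicate 1, 3 or 4 and Unc79 without wild-type replicate 1. The abundant exchanger Slc8a1 had 0.30 (adjusted p = 0.0744). In heterozygous mice none of the 34 genes was called, where 0.596% of all genes tested were. Between homozygous and heterozygous mice Ank2 (0.49), Calm2 (0.92) and Fam155a (0.63) were higher, where 1.74% of all genes tested were higher.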

How the data were processed

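RNA-seq of the hypothalamus was examined in 12 libraries, 4 per genotype, made from 50 ng of RNA each and read as 75 and 35 bp pairs per the labels' protocols. The authors deposited raw counts per gene symbol, which was checked on the values. The genome build was mm10 per the submitters' processing notes. Aligner, counting tool, annotation and strand were not given in the sources used here. Columns were matched to labels by genotype prefix and number.

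Counts were scaled with TMM factors, filtered with filterByExpr and tested with edgeR 4.0.16 in R 4.3.3 (quasi-likelihood F test over all 12 libraries, Benjamini-Hochberg over all 10737 genes tested). SE is the log2 fold change over the square root of F. Lengths and GC content are from the longest basic transcript in GENCODE M21, and coordinates are those of the whole gene. Alternatives used other scaling and filters, DESeq2 1.42.0, limma-voom (limma 3.58.1), fewer libraries, a block on replicate number, a composition covariate and a GC offset, the last added after the data were seen. The edgeR script was tested on simulated data. No pair of libraries within a genotype was a duplicate, and pairs across genotypes were not checked for this.

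Members and lists were chosen with earlier results of these data known. Tested members could be named, and some genes are not reported here. Values per library are given for called members, the member with the highest level per length in each class, and HCN genes. Of the partners, called genes are named, and otherwise the gene of smallest p per list, besides Ank3, Nalcn, Slc8a1, Pex5l and Nedd4l, named after their values were seen. Nothing says that libraries of a genotype came from separate litters or days, and p-values measure the spread between these individuals.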

Additional observations from a re-analysis of the deposited data

Results flagged for a closer look

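In 135 sets of 4 libraries (45 genes in 3 genotypes), 3 held a library far from the other 3, where chance alone flags about 1 in 20 sets. Wild-type replicate 1 stood at 302 CPM for Cacnb4, with the other wild-type libraries at 234 to 245, and at 271 CPM for Scn8a, with the others at 206 to 217. Both genes were called as higher in homozygous mice, and both calls were kept without that library. Homozygous replicate 5 stood at 116 CPM for Trpm7, with the other homozygous libraries at 102 to 103; without it the Trpm7 call was lost.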

How the results depend on the processing

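Of the 67 genes, 15 of 45 tested were called between homozygous and wild-type mice. Leaving out 1 library in turn gave 9 (without wild-type replicate 3) to 16 calls, and other scalings, tools and filters or a fit of 2 genotypes 11 to 15. The count was 3 without homozygous replicates 4 and 5, 0 with the composition score and 9 with the GC offset, which was chosen after the data were seen. The partner list (16 called) gave 11 to 18 with 1 library left out, 7 without homozygous replicates 4 and 5, 1 with the composition score and 13 with the GC offset. With 1 library left out 16.9% to 28.4% of all genes were called, and in the other 3 fits 11.9%, 3.09% and 21.2%. With the composition score, Cacnb4 (−0.11) and Calm3 (0.11) changed sign. Between homozygous and heterozygous mice (0 called), DESeq2 gave 1 call, no filter 3, and leaving out 1 library 0 to 4. Between heterozygous and wild-type mice (0 called) the fit without homozygous replicates 4 and 5 gave 1. The cause of these shifts was not tested, and the fit with the composition score cannot fully separate it from genotype.

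Correlations of the 8 pairs of libraries with the same replicate number ran from −0.26 to 0.33, and 1 exceeded 0.1. Homozygous replicate 5, whose number is in no label, was not counted as sharing a number with wild-type replicate 5. Those of the 40 pairs with other numbers ran from −0.25 to 0.24, and 9 exceeded 0.1. Same-number pairs thus showed no common shift, but these values cannot exclude a pairing. With the replicate number as a block, 6 channel genes (Cacnb2, Cacna1b, Trpc4ap, Cacng7, Cacng5 and Cacng2) and 9 partners were called between homozygous and wild-type mice, where 12.2% of all genes tested were. In that fit wild-type replicate 5 and homozygous replicate 5 each stood alone in a block and added nothing to the comparison. The block and the loss of these libraries therefore cannot be told apart in that count. Genes with few counts, such as Hcn2 and Cacng4, are limited by depth.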
